A study of Drosophila melanogaster with 6 samples.

Results

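Mock-RNA is the RNA that stayed on streptavidin beads when larvae had been given no tagged nucleotide, and its make-up is described here against ref-RNA, the RNA tagged in all carcass cells. The mock-RNA libraries were made from larvae of genotype UAS-CD:UPRT that were mock fed. The ref-RNA libraries were made from larvae of the same genotype fed 5-ethynyluridine (5EUd) for 12 h. No Gal4 driver was present in either group, so the CD:UPRT transgene that both groups carried had no driver. Both groups were L3 larvae, L3 being the last larval instar, and RNA was taken from the dissected carcass, which is mostly body wall muscle and epidermis with the peripheral neurons. The 2 mock-RNA and 2 ref-RNA libraries were chosen by their labels from the 6 libraries of the series. The other 2 libraries, EC-RNA, came from larvae that carried the 109(2)80-Gal4 driver together with UAS-CD:UPRT and were fed 5-ethynylcytosine (5EC) and are given beside some values. The table lists 30828 transcripts of 14240 genes as TPM, the transcript's share of a library's RNA corrected for transcript length and scaled to a fixed total, which were summed to genes here, with blank cells read as 0.

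In this method an ethynyl-bearing nucleotide is built into new RNA, biotin is attached to the ethynyl group by click chemistry, and biotinylated RNA is captured on streptavidin beads. RNA from larvae that ate no analog carries no ethynyl group, so what is recovered from it marks how cleanly the capture worked and which transcripts come through untagged. Transcripts of muscle, of the cuticle that the epidermis secretes, of mitochondria and of ribosomal proteins are among the abundant RNAs of a larval carcass.

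Mock-RNA listed fewer genes than ref-RNA, and a few genes held most of it. The mock-RNA libraries listed 2178 and 1812 genes above 0, against 9942 and 10369 genes in the ref-RNA libraries. The 10 most abundant genes of each library held 53.8% and 61.7% of TPM in mock-RNA and 31.5% and 31.2% in ref-RNA. The study describes far lower read yields for mock-RNA than for ref-RNA, and the TPM table states no read count behind single values. A blank in mock-RNA therefore means not detectable at that depth, and a listed value may rest on few reads. No interval can be given for a single value. All shares and differences below are relative to the library's own total, and not to the amount of RNA recovered. Less RNA from a cell type and fewer cells of that type cannot be told apart in these bulk samples.

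The mock-RNA replicates shared a core of genes. Of the genes listed, 1056 were listed in both mock-RNA libraries, which is 48.5% of the first library's list and 58.3% of the second's. These genes held 79.5% and 90.1% of mock-RNA TPM. A further 1878 genes were listed in 1 mock-RNA library, and 11306 genes were listed in neither. Among the 1056 shared genes, 668 lay within 2-fold of each other in the replicates, and 78 lay more than 10-fold apart. Their median distance was 1.81-fold between the mock-RNA replicates and, over the 1044 of them that both ref-RNA libraries list, 1.19-fold between the ref-RNA replicates. Unrelated genes stood at this same mock-RNA distance, among them RpL41 (192 and 348 TPM), Lcp1 (67.6 and 123 TPM) and Lip1 (8.46 and 15.4 TPM). Equal small read counts would repeat 1 ratio, so the distance and the 2-fold count need not measure agreement of levels. The read counts behind these values were not tested. Across these 1056 genes, which are not independent replicates, Spearman's rho was 0.76 between the mock-RNA replicates, 0.43 to 0.46 between a mock-RNA and a ref-RNA library and 0.98 between the ref-RNA replicates. The order of TPM within the shared core was thus closer between the 2 mock-RNA libraries than between mock-RNA and ref-RNA, although both fell short of the ref-RNA replicates. Where few reads stand behind a value, its TPM follows transcript length in both libraries, so rho need not measure agreement of levels.

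**Figure D1:**
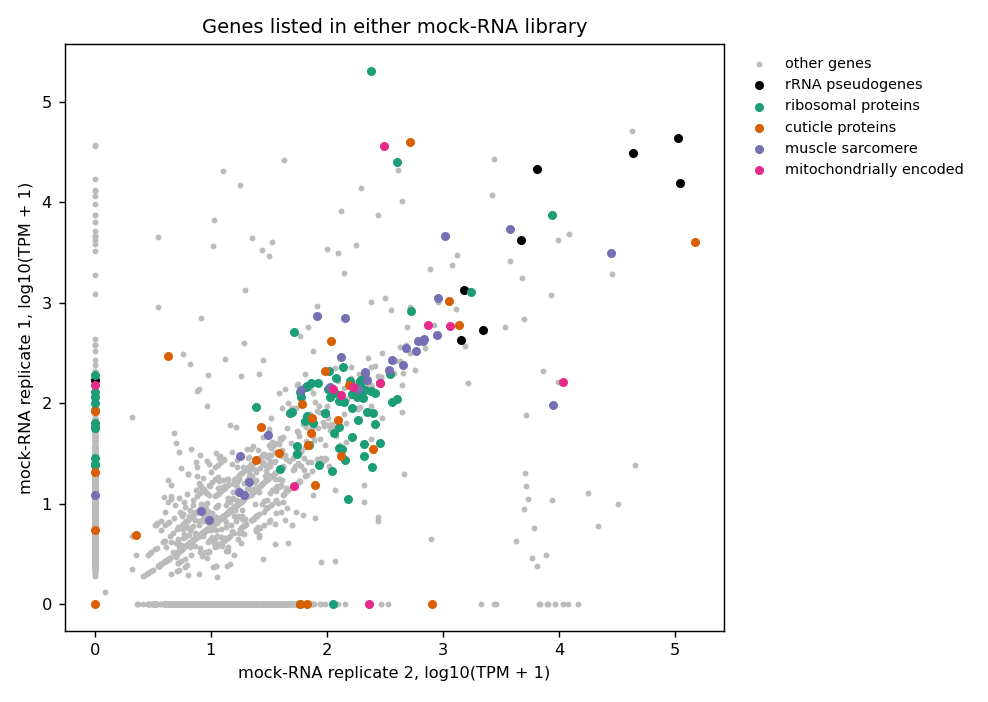
Level of each gene listed in either mock-RNA library, as log10(TPM + 1), with mock-RNA replicate 2 on the horizontal axis and mock-RNA replicate 1 on the vertical axis; each point is a gene, coloured by class. The 1056 genes listed in both form the diagonal cloud, the 1878 genes listed in 1 library lie on the axes, and 78 shared genes lie more than 10-fold from the diagonal.

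At the top of the lists the replicates parted. Of the 72 genes at 1000 TPM or more in mock-RNA replicate 1, 25 were also at 1000 TPM or more in replicate 2, while 18 were blank there and 12 were below 100 TPM. Of the 64 such genes of replicate 2, 11 were blank in replicate 1 and 16 were below 100 TPM. RpL39, a protein of the large ribosomal subunit with a transcript of 288 nt, was the most abundant gene of mock-RNA replicate 1 at 203839 TPM and stood at 237 TPM in replicate 2, and it was blank in both EC-RNA and both ref-RNA libraries. Its exons overlap those of RpL12 on the other strand. The cuticle gene TwdlO stood at 39529 and 520.0 TPM in mock-RNA, against 6.48 and 35.9 TPM in ref-RNA. ATPsynD, a subunit of the mitochondrial ATP synthase, stood at 37495 TPM in mock-RNA replicate 1 and was blank in replicate 2, against 231 and 202 TPM in ref-RNA. In the other direction, Cchl, which attaches haem to cytochrome c, stood at 23.5 and 45303 TPM in mock-RNA, against 32.8 and 22.5 TPM in ref-RNA. None of these 4 genes was called between mock-RNA and ref-RNA, with limma adjusted p-values of 0.067 for RpL39, 0.0785 for TwdlO, 0.981 for ATPsynD and 0.349 for Cchl. Genes of this kind carried much of the class shares given below.

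The genes at 1000 TPM or more in both mock-RNA libraries numbered 25, and they held 26.0% and 59.5% of mock-RNA TPM but 14.0% and 12.5% of ref-RNA TPM. By the lower of its 2 mock-RNA values, the leading gene was 28SrRNA-Psi:CR45851, an annotated pseudogene of the large ribosomal RNA, at 43623 and 105265 TPM in mock-RNA, against 16345 and 13262 TPM in ref-RNA. CG12730 followed, a protein-coding gene on chromosome X (5516608 to 5518771, BDGP6.54), at 51078 and 42340 TPM in mock-RNA, against 620 and 557 TPM in EC-RNA and 18.4 and 11.7 TPM in ref-RNA. All of its mock-RNA TPM was on 1 transcript of 1892 nt, and its exons overlap the antisense gene asRNA:CR45518, from which it cannot be separated where strand was not used in the counting. CG12730 was called higher, with a log2 difference of 11.53 ± 0.34 (SE, n = 2 each, limma, Benjamini-Hochberg adjusted p = 0.000763). This was the largest difference called at a pseudocount of 1, but at 0.1 CG12730 (11.62) came after CG4467 (12.36), CG3078 (12.35) and CG32547 (12.13). The list then ran through further ribosomal RNA pseudogenes, RpS27A, CG10289, trol, Lcp4, Mhc, Act57B, Cdk7, ctp and CG6191, in which genes far above ref-RNA and genes below it alternate.

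**Figure D2:**
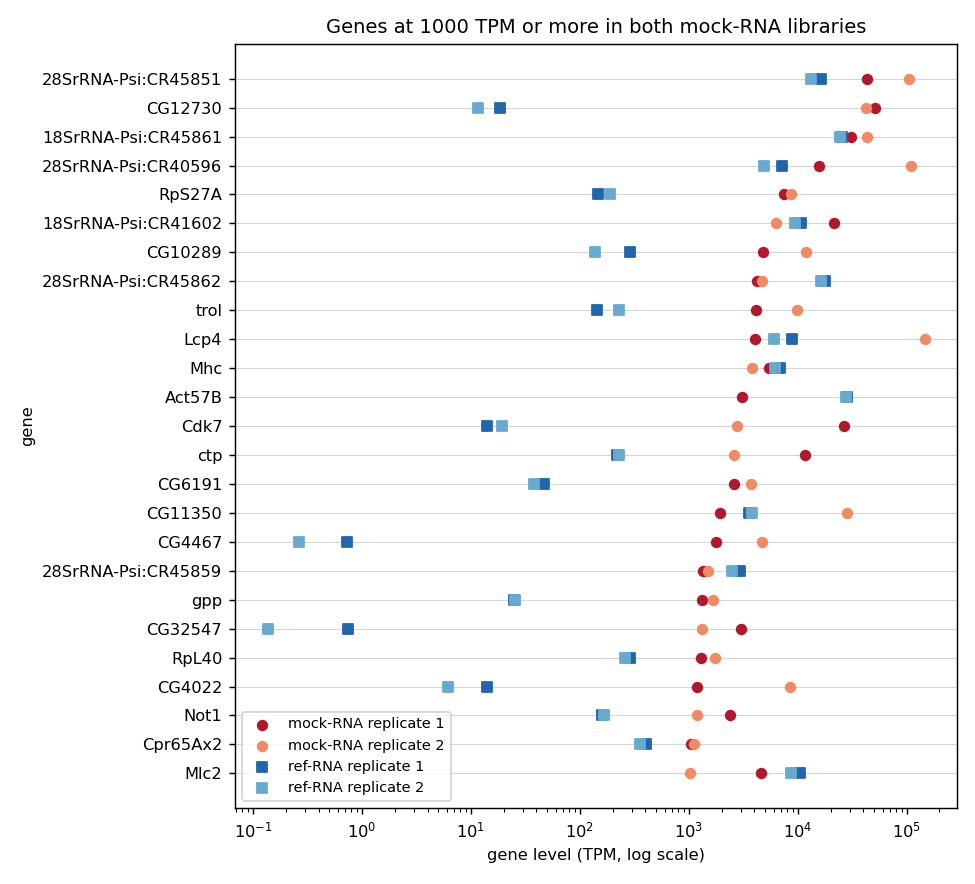
Level in TPM (horizontal log axis) of the 25 genes at 1000 TPM or more in both mock-RNA libraries, sorted by the lower mock-RNA value; circles are mock-RNA and squares ref-RNA replicates. CG12730, Cdk7, CG4467 and CG32547 lie far to the right of their ref-RNA values, while 28SrRNA-Psi:CR45862, Mhc, Act57B and Mlc2 lie at or to the left of theirs.

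Between mock-RNA and ref-RNA, 9025 genes averaging 1 TPM or more across the 4 libraries were tested with limma on log2(TPM + 1), a scale that understates the change of scarce genes. A gene was called at a Benjamini-Hochberg adjusted p below 0.05 where it also differed 2-fold or more. In mock-RNA, 66 genes (0.731% of those tested) were called higher and 6054 genes (67.1%) lower. Both replicates of mock-RNA exceeded both of ref-RNA for 125 genes (1.39%), and both fell short of them for 7791 genes (86.3%). Of the genes called lower, 5106 were blank in both mock-RNA libraries, 358 were listed in 1 and 590 in both. The count of genes called higher depended on single libraries, since leaving out mock-RNA replicate 1 or 2 gave 196 and 187 genes, and leaving out ref-RNA replicate 1 or 2 gave 13 and 11 genes. Of the 17 genes called among the 23 followed by name, 13 and 14 lost their call without ref-RNA replicate 1 and 2. Quantile normalization of the log2 values, which gives all libraries 1 distribution, called 129 genes higher and 511 lower, which makes 20.2% of its calls higher ones, against 1.08% without it. Over all tested genes the median log2 difference was −3.19 on TPM as deposited and 0.16 after quantile normalization. Over the 1054 tested genes that both mock-RNA libraries list, it was −2.27 on TPM as deposited, 0.94 after quantile normalization and −1.65 after rescaling each library without the 10 most abundant genes.

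Whether a gene was listed in mock-RNA followed its level in ref-RNA. Of the 96 genes above 1000 TPM in ref-RNA, 88.5% were listed in both mock-RNA libraries. The share was 48.5% of the 824 genes at 100 to 1000 TPM, 10.4% of the 4530 genes at 10 to 100 TPM and 1.71% of the 4266 genes at 1 to 10 TPM. Of the 3179 genes blank in ref-RNA, 5 were listed in both mock-RNA libraries, namely RpL39, the lipase gene Lip1, CG3588, CG14419 and CR43087. Transcript length went with listing as well: among genes at 10 to 100 TPM in ref-RNA, 2.13% of those with a longest transcript under 1000 nt were listed in both mock-RNA libraries, against 20.9% of those of 3000 nt or more. Where listed, abundant genes stood well below their ref-RNA level, with medians of 4.56% and 6.84% of it for genes above 1000 TPM and 8.44% and 12.4% for genes at 100 to 1000 TPM. Listed genes of 1 to 10 TPM in ref-RNA stood at medians of 111% and 188% of it, and few genes of that level were listed.

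**Figure D3:**
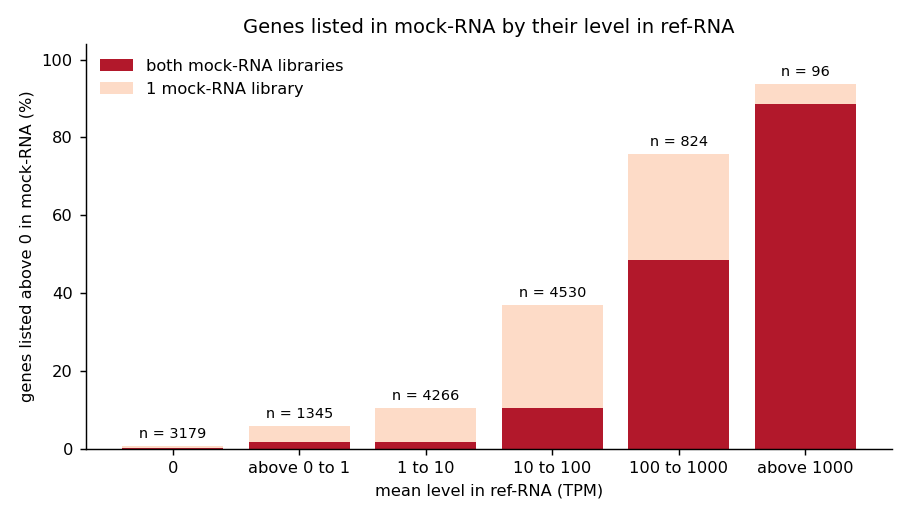
Share of genes (vertical axis, %) listed above 0 in both mock-RNA libraries (dark bars) or in 1 of them (pale bars, stacked), by mean ref-RNA level in TPM (horizontal axis), with the number of genes above each bar. The share listed in both climbs with the ref-RNA level, with 10.4% at 10 to 100 TPM, 48.5% at 100 to 1000 TPM and 88.5% above 1000 TPM.

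By class, ribosomal RNA pseudogenes took 12.0% and 28.1% of TPM in mock-RNA, against 8.53% and 7.56% in ref-RNA. Cytoplasmic ribosomal protein genes took 24.9% and 2.14% in mock-RNA, against 1.48% and 1.64% in ref-RNA. Cuticle protein genes took 4.74% and 15.5% in mock-RNA, against 2.24% and 1.85% in ref-RNA. Each of these 3 classes was above its ref-RNA share in both mock-RNA libraries, but the 2 mock-RNA shares differed more from each other than the lower one did from ref-RNA. Muscle genes took 2.03% and 4.98% in mock-RNA, against 14.9% and 13.5% in ref-RNA. Mitochondrially encoded genes took 3.87% and 1.42% in mock-RNA, against 24.2% and 25.0% in ref-RNA. Both of these classes lay below their ref-RNA share in both mock-RNA libraries, by more than the mock-RNA libraries differed from each other. With 2 libraries against 2, the exact two-sided permutation test cannot go below p = 0.33, and no test was run on the shares. Genes of none of the classes examined held 44.7% and 45.2% of mock-RNA and 41.9% and 44.1% of ref-RNA.

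**Figure D4:**
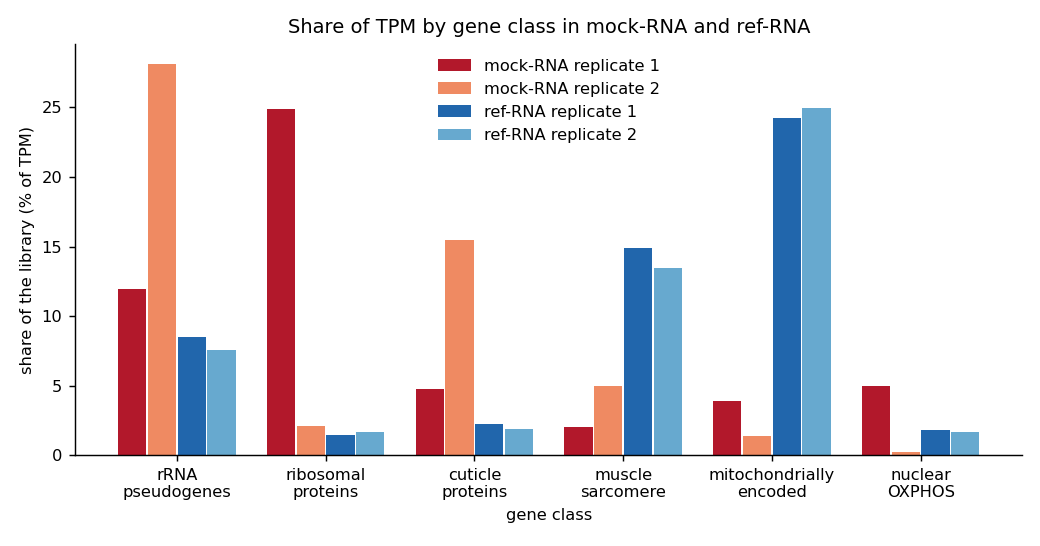
Share of each library (vertical axis, % of TPM) held by 6 gene classes; bars are single libraries, mock-RNA in red shades and ref-RNA in blue shades. The mitochondrially encoded genes stand at 3.87% and 1.42% in mock-RNA and 24.2% and 25.0% in ref-RNA, and the tall mock-RNA bars of ribosomal proteins (24.9%) and cuticle proteins (15.5%) belong to 1 library each.

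The nuclear and rDNA copies of ribosomal RNA annotated as pseudogenes were added as a class after their values had been seen. Of the 23 copies, 8 were listed in both mock-RNA libraries and 14 in neither, while 14 were listed in at least 1 ref-RNA library. Of 13 tested, 2 were called higher and 4 (30.8%) lower, against 0.731% and 67.1% of all tested genes. 28SrRNA-Psi:CR45851 was higher in mock-RNA, with a log2 difference of 2.20 ± 0.53 (SE, n = 2 each, limma adjusted p = 0.0382). Its call was lost after rescaling without the mitochondrially encoded genes (adjusted p = 0.0524) and without ref-RNA replicate 1 or 2 (limma adjusted p = 0.332 and 0.367), and over its alternatives the adjusted p ran down to 0.000208. 28SrRNA-Psi:CR45853 was also called higher, at 425 and 1431 TPM in mock-RNA, against 36.3 and 24.7 TPM in ref-RNA. 28SrRNA-Psi:CR40596 stood at 15651 and 109819 TPM in mock-RNA, against 7208 and 4953 TPM in ref-RNA, and did not pass (limma adjusted p = 0.119). 28SrRNA-Psi:CR45862 was lower, at 4229.9 and 4661 TPM in mock-RNA, against 17826 and 16329 TPM in ref-RNA (log2 difference −1.94 ± 0.09, SE, n = 2 each, limma adjusted p = 0.000975). The 18S copy 18SrRNA-Psi:CR45861 stood at 30739.9 and 43382 TPM in mock-RNA, against 25332 and 24334 TPM in ref-RNA, and did not pass (limma adjusted p = 0.0927). Copies of the same rRNA thus stood on opposite sides of their ref-RNA level. These copies are near-identical to one another and to rRNA, the assignment of reads among them is uncertain, and the library kit included a step that depletes ribosomal RNA.

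Most cytoplasmic ribosomal protein genes were listed in mock-RNA, at medians of 55.0% and 80.5% of their ref-RNA level among those of at least 20 TPM there. The cytoplasmic ribosome is built of rRNA and these proteins, and their transcripts are short and present in all cells. Of the 88 genes, 66 were listed in both mock-RNA libraries, 13 in 1 and 9 in neither. At 100 to 1000 TPM in ref-RNA, both mock-RNA libraries listed 59 of 66 ribosomal protein genes (89.4%) and 341 of 758 other genes (45.0%). Among genes with a longest transcript under 1000 nt at that level, the counts were 34 of 38 (89.5%) and 28 of 120 (23.3%). Where listed, the ribosomal protein genes of that level, at any length, had medians of 46.6% and 79.2% of their ref-RNA level. The other genes had 7.08% and 10.5%. Among listed genes under 1000 nt there, the ribosomal protein medians were 43.97% and 66.97%, against 27.7% and 28.5% for other genes. The gap in medians was thus smaller among short genes. The 2 groups of genes share the same libraries, and no test was made of their difference.

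In limma, 3 of 83 tested ribosomal protein genes were called higher, 9 (10.8%) were called lower and 71 did not pass. Over all tested genes, 0.731% were called higher and 67.1% lower. Both mock-RNA replicates exceeded both ref-RNA replicates for 10 of the 83 ribosomal protein genes and fell short of both for 38, and 35 overlapped. Over all tested genes, 1.39% exceeded and 86.3% fell short. The median log2 difference of the 66 genes listed in both mock-RNA libraries was −0.42, against −2.27 over all genes so listed. The median changed sign with the scaling, to 1.84 after quantile normalization and 0.32 after rescaling without the 10 most abundant genes, and stayed above that of all genes so listed (0.94 and −1.65). RpL4 was among those near ref-RNA, at 165 and 158 TPM in mock-RNA and 193 and 225 TPM in ref-RNA. RpL6 stood at 121 and 192 TPM in mock-RNA and 139.9 and 158 TPM in ref-RNA. Among the genes called lower were RpS20, at 127 and 57.7 TPM in mock-RNA against 355 and 505 TPM in ref-RNA, and RpL9, at 62.0 and 75.0 TPM in mock-RNA against 259 and 250.5 TPM in ref-RNA. RpS15Ab and RpL29 were blank in both mock-RNA libraries.

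The ribosomal protein genes called higher included both whose product is made as a fusion with ubiquitin, the small protein tag that marks other proteins for degradation. RpS27A (chromosome 2L, 10408352 to 10410456, BDGP6.54) stood at 7511 and 8688 TPM in mock-RNA, against 2.85 and 44.0 TPM in EC-RNA and 147 and 191 TPM in ref-RNA. Its exons overlap those of Ip259 on the same strand. Its log2 difference was 5.58 ± 0.24 (SE, n = 2 each, limma adjusted p = 0.000933). RpL40 stood at 1288.5 and 1741 TPM in mock-RNA, against 11.6 and 43.5 TPM in EC-RNA and 288 and 262 TPM in ref-RNA (log2 difference 2.44 ± 0.30, SE, n = 2 each, limma adjusted p = 0.00812). All of the mock-RNA TPM of RpL40 was on a transcript of 659 nt that stood at 7.66 and 29.1 TPM in ref-RNA. The mock-RNA replicates of both genes lay close together and apart from all 4 tagged libraries. The polyubiquitin gene Ubi-p63E, whose product is ubiquitin repeats alone, was lower at 25.0 and 27.2 TPM in mock-RNA, against 367 and 258 TPM in ref-RNA (limma adjusted p = 0.00929). Ubiquitin-coding sequences are alike, so reads may be split among these genes in a way that the table does not show. RpL41, which encodes the shortest protein of the ribosome, was the other gene called higher, at 192 and 348 TPM in mock-RNA, against 63.5 and 56.9 TPM in ref-RNA. Its mock-RNA values stood at the repeated 1.81-fold distance, so their closeness may rest on few reads, which was not tested.

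The share that ribosomal proteins took of mock-RNA rested on few members. RpL39 held 82.9% of the class in mock-RNA replicate 1 and RpS27A 41.7% in replicate 2. Without these 2 genes the class held 3.50% and 1.22% of mock-RNA TPM, against 1.47% and 1.62% of ref-RNA TPM. RpS7 added 25307 TPM in mock-RNA replicate 1 and stood at 401 TPM in replicate 2, against 185 and 240.4 TPM in ref-RNA. The excess of the class over ref-RNA was therefore not shared by the replicates once those genes were left out.

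The ribosomal proteins of mitochondria, which are nuclear genes of lower expression, were not in the shared core, and few other short genes of their level were. None of the 75 was listed in both mock-RNA libraries and 12 were listed in 1. At 10 to 100 TPM in ref-RNA none of 55 was listed in both mock-RNA libraries, against 470 of 4475 other genes (10.5%). Among genes of that level with a longest transcript under 1000 nt, the counts were 0 of 37 and 15 of 667 (2.25%). Of 72 tested, 50 (69.4%) were called lower, near the 67.1% of all tested genes, all 50 were blank in both mock-RNA libraries, and none was called after quantile normalization. The class was thus not detectable in both replicates at this depth. The most abundant members blank in both mock-RNA libraries were mRpS11, at 58.0 and 43.6 TPM in ref-RNA, and mRpL13, at 45.3 and 47.4 TPM in ref-RNA.

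Cuticle genes encode the structural proteins that bind chitin in the larval exoskeleton. Of 126 cuticle protein genes, 21 were listed in both mock-RNA libraries, 6 in 1 and 99 in neither, and 79 were listed in at least 1 ref-RNA library. Of 58 tested, 3 were called higher and 30 (51.7%) lower, against 0.731% and 67.1% of all tested genes. Of the 30 called lower 26 were blank in both mock-RNA libraries, and 25 genes did not pass. There were 8 cuticle genes under 1000 nt at 100 to 1000 TPM in ref-RNA, and both mock-RNA libraries listed 5 of them. They listed 57 of 150 other genes of that length and level. Where listed, the cuticle genes had medians of 108% and 53.3% of their ref-RNA level, against 34.9% and 37.1% for the other genes. These medians leave out blank genes and rest on few cuticle genes, so they need not describe the class, and no test was made. The median log2 difference of the 20 tested genes listed in both was −0.28, and it changed sign to 1.49 after quantile normalization, where 6 genes were higher and 6 lower, and to 0.30 after rescaling without the 10 most abundant genes. Lcp4, a larval cuticle protein, stood at 4039 and 146063 TPM in mock-RNA, against 8833 and 6115 TPM in ref-RNA, and did not pass (limma adjusted p = 0.491). Its neighbour Lcp1 stood at 67.6 and 123 TPM in mock-RNA, against 7343 and 6802 TPM in ref-RNA. Lcp2 stood at 34.1 and 247 TPM in mock-RNA, against 909 and 1163 TPM in ref-RNA. Genes of 1 larval cuticle cluster thus differed widely in how much of their ref-RNA level was found in mock-RNA. Lcp4 alone stood at 54.0% and 1954% of its ref-RNA level in the 2 mock-RNA libraries. Reads may be split among these related genes in a way that the table does not show. The third member, Lcp3, was called higher at 37.0 and 67.1 TPM in mock-RNA, against 7.42 and 2.22 TPM in ref-RNA. Its mock-RNA values stood at the same ratio as those of Lcp1 and may rest on few reads, which was not tested.

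The cuticle gene Cpr65Ax2 was even between the mock-RNA replicates. It stood at 1041 and 1114 TPM in mock-RNA, against 409 and 355 TPM in ref-RNA, with a log2 difference of 1.50 ± 0.25 (SE, n = 2 each, limma adjusted p = 0.0169). Lcp65Ab1, of the same gene cluster on chromosome 3L, stood at 597 and 1379 TPM in mock-RNA, against 1422 and 792 TPM in ref-RNA, and overlapped. Reads of the near-identical copies in this cluster may be split among them. Cpr65Eb was called higher at 28.9 and 131 TPM in mock-RNA, against 0 and 0.537 TPM in ref-RNA. Lcp65Ag3 and Cpr49Ag were blank in both mock-RNA libraries and called lower, at 232 and 218 TPM and at 169 and 175 TPM in ref-RNA. TwdlO held 84.3% of the class in mock-RNA replicate 1 and Lcp4 96.5% in replicate 2, and without both genes the class held 0.337% and 0.483% of mock-RNA TPM, against 1.35% and 1.24% of ref-RNA TPM. The place of the class relative to ref-RNA was thus turned round by 2 genes, each dominant in a different replicate.

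The abundant muscle genes were all present in mock-RNA, most of them at a small part of their ref-RNA level, as were other genes of their abundance. Of 38 contractile and sarcomere genes, 29 were listed in both mock-RNA libraries, 1 in 1 and 8 in neither. All 22 of them above 1000 TPM in ref-RNA were listed in both, against 63 of 74 other genes (85.1%). At that level the muscle genes had medians of 8.13% and 10.4% of their ref-RNA level in mock-RNA, against 3.23% and 5.93% for the other genes where listed, and no test was made of this difference. Of 34 tested, 27 (79.4%) were called lower, against 67.1% of all tested genes, none was called higher at an adjusted or an unadjusted p below 0.05, and 7 did not pass. The median log2 difference of the 29 genes listed in both was −3.55, and it was −2.19 after quantile normalization, where 12 genes were called lower. Where listed, the 33 genes of at least 20 TPM in ref-RNA had medians of 6.59% and 7.21% of their ref-RNA level. In mock-RNA replicate 1 the listed genes ran from 1.49% for the actin gene Act87E to 123% for Msp300, and in replicate 2 from 1.11% for the Z-disc gene Zasp66 to 666% for the alpha-actinin gene Actn. Msp300 and Actn were high in 1 replicate each, at 13.5% in replicate 2 for Msp300 and 7.02% in replicate 1 for Actn. The giant sarcomere protein gene sls stood at 46.6% and 85.6%.

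Muscle myosin heavy chain, Mhc, summed over its transcripts, stood close to its ref-RNA level, at 5436 and 3767 TPM in mock-RNA and 6906 and 6172 TPM in ref-RNA (log2 difference −0.53, limma adjusted p = 0.132). Of its mock-RNA TPM, 46.5% and 67.8% was on 1 of its 21 transcripts, which stood at only 10.3 and 210 TPM in ref-RNA. The make-up of the sum thus differed between the groups. The actin gene Act57B stood at 3091 and 27668 TPM in mock-RNA, against 28361 and 27608 TPM in ref-RNA, so that 1 mock-RNA replicate equalled ref-RNA and the other did not. The myosin light chain gene Mlc2 stood at 4583 and 1030.1 TPM in mock-RNA, against 10592 and 8670.1 TPM in ref-RNA. The other light chain gene, Mlc1, stood at 414 and 664 TPM in mock-RNA, against 19930.4 and 17939 TPM in ref-RNA. The light chain genes thus parted, Mlc2 with 47.6% and 10.7% of its ref-RNA level and Mlc1 with 2.19% and 3.51%. The troponin T gene up stood at 1110.2 and 904 TPM in mock-RNA, against 3173 and 2742 TPM in ref-RNA. Of the thin filament and Z-disc genes, Actn stood at 93.8 and 8911 TPM in mock-RNA, against 1351 and 1324 TPM in ref-RNA. TpnC25D and sals were blank in both mock-RNA libraries, at 132 and 93.5 TPM and at 102 and 93.2 TPM in ref-RNA.

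Mitochondrially encoded genes, which specify core subunits of the respiratory chain and are transcribed inside the organelle, showed the smallest part of their ref-RNA level among the 5 classes plotted by that measure. Of 14 genes, 9 were listed in both mock-RNA libraries, 2 in 1 and 3 in neither, and 7 of 13 tested (53.8%) were called lower, against 67.1% of all tested genes. After quantile normalization 7 of the 13 were called lower, against 511 of all 9025. The median log2 difference of the 9 genes was −6.21, and −5.70 after quantile normalization. mt:CoI stood at 600 and 741 TPM in mock-RNA, against 61362 and 47446 TPM in EC-RNA and 50342 and 48505 TPM in ref-RNA (log2 difference −6.21 ± 0.14, SE, n = 2 each, limma adjusted p = 0.000763). mt:CoIII stood at 591 and 1143 TPM in mock-RNA, against 136250 and 90797 TPM in EC-RNA and 65451 and 68040 TPM in ref-RNA (limma adjusted p = 0.00172). Both genes were thus abundant in all 4 tagged libraries and scarce in mock-RNA. Cytochrome b, mt:Cyt-b, stood at 136 and 112 TPM in mock-RNA, against 28941 and 28039 TPM in ref-RNA.

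A few genes stood apart from the rest, each in 1 mock-RNA replicate. mt:ATPase6 stood at 36208 and 310 TPM in mock-RNA, against 17562 and 15649 TPM in ref-RNA. mt:ND5 stood at 161 and 10705 TPM in mock-RNA, against 25218 and 25533 TPM in ref-RNA. The scarcer mt:ND4L stood at 0 and 229 TPM in mock-RNA, against 81.8 and 41.6 TPM in ref-RNA. mt:ATPase6 held 94.6% of the class in mock-RNA replicate 1 and mt:ND5 77.2% in replicate 2, and without both the class held 0.193% and 0.293% of mock-RNA TPM, against 19.9% and 20.8% of ref-RNA TPM. mt:ATPase8 and mt:ND6 were blank in both mock-RNA libraries.

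**Figure D5:**
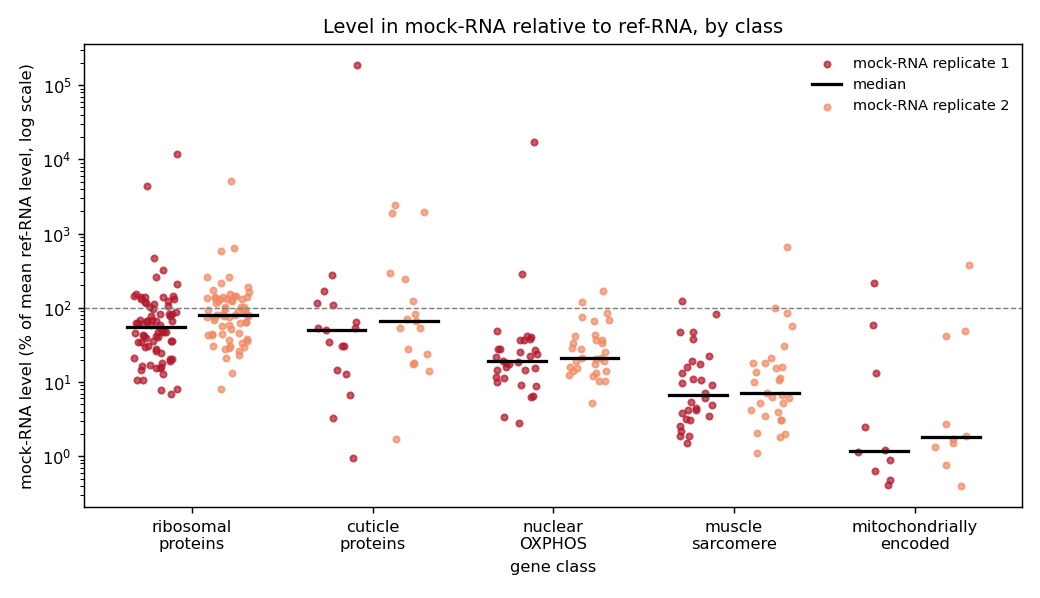
Level in each mock-RNA library as a percentage of the mean ref-RNA level (vertical log axis) for genes of 5 classes with at least 20 TPM in ref-RNA that the library lists; points are genes, black bars are medians, and the dashed line marks 100%. Medians are 55.0% and 80.5% for ribosomal proteins, 49.7% and 66.3% for cuticle proteins, 19.0% and 21.0% for nuclear OXPHOS genes, 6.59% and 7.21% for muscle genes and 1.18% and 1.79% for mitochondrially encoded genes. The classes are not matched for ref-RNA level or transcript length, which both go with the percentage.

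Nuclear genes of oxidative phosphorylation (OXPHOS), whose proteins join the mitochondrially encoded ones in the respiratory chain, took 4.96% and 0.234% of TPM in mock-RNA, against 1.84% and 1.67% in ref-RNA. Of 85 genes, 21 were listed in both mock-RNA libraries, 21 in 1 and 43 in neither. Of 72 tested, 40 (55.6%) were called lower, against 67.1% of all tested genes, 27 of the 40 were blank in both mock-RNA libraries, and none was called higher at an adjusted or an unadjusted p below 0.05. The median log2 difference of the 21 genes listed in both was −2.31, and it was 0.06 after quantile normalization, where 17 genes were called lower. ATPsynC, of the ATP synthase, stood at 10313 and 443 TPM in mock-RNA, against 3851 and 3296 TPM in ref-RNA, on both sides of ref-RNA. The ATP synthase genes blw (alpha subunit) and ATPsynbeta were lower, blw at 164 and 123 TPM in mock-RNA against 588 and 592 TPM in ref-RNA. ATPsynbeta stood at 93.7 and 241 TPM in mock-RNA, against 1607 and 1393 TPM in ref-RNA. UQCR-11, of respiratory complex III, stood at 863 and 699.6 TPM in ref-RNA and was blank in both mock-RNA libraries, as was COX7A, of complex IV, at 474 and 491 TPM in ref-RNA. Genes of 1 enzyme chain were thus either listed, at medians of 19.0% and 21.0% of their ref-RNA level, or not detectable. At 100 to 1000 TPM in ref-RNA the medians were 16.7% and 20.5%, against 7.98% and 12.0% for other listed genes. Among genes under 1000 nt there the order turned round, with 16.7% and 33.2%, against 45.4% and 43.0% for other listed genes. Of these short genes, both mock-RNA libraries listed 7 of 26 OXPHOS genes and 55 of 132 other genes, and blank genes are left out of the medians.

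Of 14 glycolytic genes, 12 were listed in both mock-RNA libraries and 12 (85.7%) were called lower, against 67.1% of all tested genes. After quantile normalization 4 of the 14 were called lower, against 511 of all 9025 tested genes. Gapdh1 stood at 195 and 186 TPM in mock-RNA, against 2068 and 2029 TPM in ref-RNA (limma adjusted p = 0.0023). Of 53 translation factors, 16 were listed in both, and 27 of 45 tested (60%) were called lower, near the share of all tested genes. After quantile normalization 3 of the 45 were called lower. None of 186 chemoreceptor genes was listed in a mock-RNA library. Of the 186, 56 were listed in at least 1 ref-RNA library and 1 averaged 20 TPM or more in ref-RNA.

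Markers of other tissues were checked in the same way. All 7 fat body markers were called lower, against 67.1% of all tested genes, and 4 were after quantile normalization, against 511 of all 9025. Lsp2, a larval storage protein, was blank in both mock-RNA libraries, against 2124 and 8623 TPM in ref-RNA, and Lsp1beta stood at 43.5 and 237 TPM in mock-RNA, against 3413 and 12725 TPM in ref-RNA. The fat body markers together held 0.00754% and 0.0315% of mock-RNA and 1.53% and 5.44% of ref-RNA, and their part in the difference between the groups was not tested. Storage protein transcripts were thus scarce in the background although they were abundant in ref-RNA. No salivary gland marker of 17 was listed in mock-RNA, and 4 were listed in at least 1 ref-RNA library. Of 24 midgut and 11 germline markers, 1 each was listed in 1 mock-RNA library. At least 1 ref-RNA library listed 11 of the midgut and 7 of the germline markers. Of all 14240 genes, 11306 were listed in neither mock-RNA library, so these absences do not set the markers apart. Of 12 neuron markers, 4 were listed in both mock-RNA libraries, and of 8 tested 2 were called higher, Syt1 and brp, and 2 (25%) lower. Over all tested genes these shares were 0.731% and 67.1%. Of 10 markers of multidendritic (md) sensory neurons, 2 were listed in both mock-RNA libraries. Of the 7 md neuron markers tested, none was called higher and 5 (71.4%) were called lower, and none was called after quantile normalization. elav, a general neuron marker, stood at 2.26 and 0 TPM in mock-RNA, against 63.1 and 54.8 TPM in ref-RNA. The active zone gene brp stood at 27.0 and 80.4 TPM in mock-RNA, against 2.89 and 2.04 TPM in ref-RNA.

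Most of the 66 genes called higher in mock-RNA belonged to none of these classes, beyond the 3 ribosomal protein genes, 3 cuticle genes and 2 ribosomal RNA pseudogenes already given, the chaperone gene Hsc70-1 and the neuron markers Syt1 and brp. Their log2 differences ran from 1.37 to 11.53, with a median of 4.41, and in all 66 the mock-RNA and ref-RNA values did not overlap. The genes were called on these same values, so the lack of overlap is no separate support for the calls. For 19 of the 66 genes the mean ref-RNA level was below 1 TPM. Cdk7, a kinase of the basal transcription machinery, stood at 26694 and 2752 TPM in mock-RNA, against 14.1 and 19.2 TPM in ref-RNA (log2 difference 8.94 ± 1.37, SE, n = 2 each, limma adjusted p = 0.0136). trol, which encodes the basement membrane proteoglycan perlecan, stood at 4167 and 9809 TPM in mock-RNA, against 143 and 228 TPM in ref-RNA (limma adjusted p = 0.00711). ctp, the dynein light chain, stood at 11760 and 2618 TPM in mock-RNA, against 222 and 230 TPM in ref-RNA (limma adjusted p = 0.0233). All of the mock-RNA TPM of ctp was on a transcript of 4061 nt that stood at 40.1 and 15.8 TPM in ref-RNA, and the exons of ctp overlap a copy of the transposon HMS-Beagle on the same strand, from which reads may not be separable. These 3 genes have unrelated functions, and each stood more than 10-fold above ref-RNA in both mock-RNA libraries.

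Some of the largest differences came from genes nearly absent from ref-RNA. CG4467 stood at 1766 and 4749 TPM in mock-RNA, against 109 and 105 TPM in EC-RNA and 0.726 and 0.265 TPM in ref-RNA (log2 difference 10.94, limma adjusted p = 0.00205). CG32547 stood at 2997 and 1326 TPM in mock-RNA, against 175 and 91.2 TPM in EC-RNA and 0.739 and 0.137 TPM in ref-RNA (limma adjusted p = 0.00188). CG3078 stood at 2167 and 773 TPM in mock-RNA, against 2.79 and 87.8 TPM in EC-RNA and 0.0638 and 0.274 TPM in ref-RNA. In all 3 genes EC-RNA lay between mock-RNA and ref-RNA, and the 2 comparisons share the ref-RNA libraries. Hr4, a nuclear receptor of the ecdysone response, stood at 691 and 5019 TPM in mock-RNA, against 1.92 and 2.53 TPM in ref-RNA, and nearly all of its mock-RNA TPM was on a transcript of 8338 nt that was blank in ref-RNA. Exons of Hr4 overlap PIG-K, and those of CG32547 overlap asRNA:CR43842, on the other strand. CG6220, CG15043, CG4022 and CG42749 completed the 10 largest differences.

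Some further single genes called higher are given here, picked out after their values had been seen and not as a group. The tubulin gene betaTub60D stood at 361 and 428 TPM in mock-RNA, against 10.8 and 13.8 TPM in ref-RNA, and alphaTub85E stood at 188 and 201 TPM in mock-RNA, against 32.6 and 26.8 TPM in ref-RNA. The general tubulin gene alphaTub84B stood at 374 and 475 TPM in mock-RNA, against 773 and 747 TPM in ref-RNA, and did not pass. Synaptotagmin, Syt1, the calcium sensor of synaptic vesicles, stood at 152 and 53.8 TPM in mock-RNA, against 9.05 and 12.8 TPM in ref-RNA. The potassium channel gene eag stood at 138 and 42.8 TPM in mock-RNA, against 0.515 and 0.240 TPM in ref-RNA, and Hk, a subunit of potassium channels, stood at 852 and 357 TPM in mock-RNA, against 15.1 and 16.7 TPM in ref-RNA. In each of the genes called higher here both mock-RNA values lay above ref-RNA, as in all genes so called, and the calls rest on these same values.

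The genes called higher had longer transcripts than the tested genes at large, with a median longest transcript of 3877 nt against 1970.0 nt, and the tested genes listed in both mock-RNA libraries had a median of 3209.5 nt. Their place in the genome was also looked at after the calls were known. Of the 64 genes placed on a chromosome arm, 27 (42.2%) lay on the X chromosome, against 1471 of 8924 tested genes (16.5%) and 233 of 1022 tested genes listed in both mock-RNA libraries (22.8%). Of the placed genes for which both mock-RNA replicates exceeded both ref-RNA replicates, 53 of 122 (43.4%) lay on X. The share of X among the genes called higher ran from 27.3% of 11 genes, without ref-RNA replicate 2, to 46.6% of 58 genes, with all 3 sample types in the fit. The X-linked genes included CG12730, Cdk7 and its neighbour CG42749, trol, ctp, Hr4, CG3078 and CG32547. The list and the feature were both chosen with the values known, so no test accompanies these shares.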

How the data were processed

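The authors tagged RNA by 12 h of feeding, biotinylated it, captured it on beads, sequenced it, trimmed the reads with Trimmomatic and pseudo-aligned them to BDGP6 transcripts with kallisto, whose versions are not given in the sources used here. They deposited TPM per transcript in each library, with 132111 blank cells and no written 0. TPM is corrected for length and scaled to a fixed total, so the read count behind a value is not stated and small classes move when abundant genes move. The column sums are 988928 and 975731 in mock-RNA. The methods call the replicates biological.

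Transcript TPM were summed to genes, with blanks as 0, and tested with limma 3.58.1 in R 4.3.3 (trended moderated test on log2(TPM + 1), genes averaging 1 TPM or more, no replicate term, Benjamini-Hochberg over all 9025 genes, called below 0.05 and at 2-fold or more). The authors tested reads with DESeq2, which TPM do not allow. The fit was tested on simulated data. Shares are percentages of listed TPM. Other values used Python 3.11.15, pandas 2.3.3 and NumPy 2.4.6, with plots from matplotlib 3.10.9. Coordinates and lengths came from BDGP6.54, Ensembl release 115, which holds 14140 of the 14240 genes. Whether strand was used in counting is not given in the sources used here.

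Classes and marker lists were matched on gene names, and the members and lists were chosen with earlier results of these data known. Genes were named by rule: the 15 with the highest lower mock-RNA value, the 10 largest differences called higher, in 6 classes the 3 highest members and the 2 most abundant blank ones, and the 5 highest of each mock-RNA library. Other genes named were chosen after their values were seen. Alternatives were pseudocounts of 0.1 and 10, other filters, quantile normalization, rescaling, single transcripts, a joint fit of all sample types, a replicate block and leaving out each library. Shares without the highest member were added after seeing the data.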

Additional observations from a re-analysis of the deposited data

How the results depend on the processing

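The count of genes called higher in mock-RNA was 66, and it was 129 after quantile normalization and 176 over single transcripts. Leaving out single libraries gave 11 to 196 genes higher and 5351 to 6534 lower, and the lone library left in a group was then assumed to vary like the other group. The count called lower was 6054, and it was 2511 at a mean of at least 10 TPM, where fewer genes were tested, and 511 after quantile normalization. At an unadjusted p below 0.05, 72 genes were higher and 6440 lower. Other settings gave 53 to 72 genes higher and 4284 to 7620 lower. The fit with the replicate block gave 53 higher and 5675 lower. Deviations from the group means correlated at 0.00127 over 9025 genes, of which 6105 were blank in both mock-RNA libraries and so had no deviation there. This value therefore cannot show whether the replicate numbers pair the libraries. None of the 23 named genes followed changed its call under the replicate block. Of these 23, 13 lost their call without ref-RNA replicate 1 and 14 without ref-RNA replicate 2. The fold change turned round for 18SrRNA-Psi:CR45861 after quantile normalization (−0.11), for 18SrRNA-Psi:CR41602 after quantile normalization (−0.32), without the mitochondrially encoded genes (−0.13) and without mock-RNA replicate 1 (−0.67, against 1.09 without replicate 2), for Lcp4 without mock-RNA replicate 2 (−0.86, against 4.31 without replicate 1) and for Mhc after rescaling without the 10 most abundant genes (0.23). None of these 4 genes was called. The mean mock-RNA share of cuticle proteins was 10.1%, and it was 1.06% after rescaling without the 10 most abundant genes of each library and 0.410% without TwdlO and Lcp4. That of mitochondrially encoded genes was 2.65%, and it was 0.132% and 0.243% in the same settings. Leaving out a mock-RNA replicate gave shares of 4.74% to 15.5% for cuticle proteins, 2.14% to 24.9% for ribosomal proteins, 2.03% to 4.98% for muscle genes and 1.42% to 3.87% for mitochondrially encoded genes. Of the 1056 genes listed in both mock-RNA libraries, 1048 were at 1 TPM or more and 520 at 10 TPM or more in both. The cause of these shifts was not tested. Read depth, which TPM does not state, limits what a blank or a low value in mock-RNA can show.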
